A study of Bos taurus with 8 samples.

Results

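The miR-148 and miR-152 family was followed in blood serum and in serum exosomes of 4 lactating cows. Its members were taken by name, as the rows bta-miR-148a, bta-miR-148b and bta-miR-152, which are 3 of the 534 bovine miRNAs listed in each library. All 3 were among the 445 miRNAs with reads, the 365 that were tested and the 128 that no library had with fewer than 10 reads. Members of this family carry the same seed, the short stretch near the 5′ end by which a miRNA pairs with its mRNA targets, so that they can act on overlapping sets of mRNAs. Among the known targets are DNMT1, the enzyme that maintains DNA methylation, and, for miR-148a, ABCA1, the transporter that exports cholesterol from cells. MiR-148a is also one of the leading miRNAs of cow milk, where it is carried in vesicles and fat globules, and the mammary gland and the liver express it.

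Blood was drawn from 4 healthy adult Holstein cows in lactation, with no treatment and no disease group. For each cow 1 small RNA library was made from whole serum and 1 from exosomes, the small vesicles that cells release, which were precipitated from the same serum. Sera were extracted with a Norgen kit and exosomes, from a larger volume, with Invitrogen kits, so that sample type and extraction cannot be told apart, and whole serum also holds the exosomes that it was compared with. Values are in RPM, reads of a miRNA for every 1000000 miRNA reads of its library, and a lower share of vesicles from one tissue cannot be told apart from less of a miRNA in each vesicle. The sera libraries held 264769 to 590162 miRNA reads and the exosome libraries 60682 to 157710, so that 3 reads stood for 5.08 to 11.3 RPM in the former and 19.0 to 49.4 RPM in the latter.

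In the RefSeq annotation of the cow (assembly ARS-UCD2.0), the 3 genes lie on different chromosomes in related surroundings. MIR148B lies within the span of COPZ1 and MIR152 within that of COPZ2, a pair of genes for the zeta subunit of the coatomer that coats Golgi vesicles. MIR148A lies in no protein-coding gene. All 3 have a gene of the NFE2 transcription factor family (NFE2L3, NFE2 and NFE2L1) and a gene for a heterochromatin protein 1 (CBX3, CBX5 and CBX1) among the nearest 5 protein-coding genes on one side. MIR148A and MIR148B also have a gene for an RNA-binding hnRNP protein there (HNRNPA2B1 and HNRNPA1), and MIR148A and MIR152 have a gene for a sorting nexin and one for a SKAP adaptor (SNX10 and SKAP2, SNX11 and SKAP1). Another miRNA gene is annotated over MIR152, MIR148C, which has the older name bta-mir-2957, and another over MIR148A, MIR148D.

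The family was nearly all miR-148a. The 3 members together took 1.33% ± 0.287 (SD, n = 4) of the reads of a serum library and 0.953% ± 0.110 of those of an exosome library, with 10034.5, 13132, 17049 and 13101 RPM in serum (cows 1 to 4) and 8981, 8717, 11138 and 9289 RPM in exosomes. The log2 difference of this sum was 0.47 (exact permutation test, two-sided p = 0.0571), and it was higher in the serum of 4 of 4 cows. MiR-148a made 90.2% to 91.9% of the family in the sera libraries and 91.4% to 93.2% in the exosome libraries. Among all miRNAs of a library miR-148a ranked 17 to 25, miR-152 ranked 83 to 102 and miR-148b ranked 83 to 117. The order of the 3 was miR-148a, then miR-152, then miR-148b in 7 of 8 libraries, and in the serum of cow 3 miR-148b stood above miR-152.

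In sera bta-miR-148a had 9065, 11844, 15432 and 12033 RPM in cows 1 to 4, from 2422 to 6990 reads. In exosomes it had 8240, 8047, 10377 and 8490 RPM, from 500 to 1339 reads. Cow 3 was the highest of the 4 in both sample types, and the groups overlapped because the serum of cow 1 was below the exosomes of cow 3. The mean of the sera was 12094 ± 2607 RPM and that of the exosomes 8788 ± 1074 RPM (SD, n = 4). The level was higher in the serum than in the exosomes of 4 of 4 cows, by 1.10 times in cow 1 (95% exact interval for counting error 0.999 to 1.21) and by 1.42 to 1.49 times in the other cows, whose intervals all lay above 1. The CV between cows was 21.6% in sera, where counting alone would give 1.57%, and 12.2% in exosomes, where counting would give 3.41%. The spread of miR-148a between libraries of a sample type was thus above counting error.

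In sera bta-miR-148b had 382, 547, 895 and 440 RPM in cows 1 to 4, from 102 to 323 reads. In exosomes it had 264, 320, 342 and 342 RPM, from 16 to 54 reads, and the 95% Wilson interval of the lowest of these, from 16 reads in cow 1, ran from 162 to 428 RPM. Every serum was above every exosome library, and the serum of cow 3 stood highest. The mean of the sera was 566 ± 230 RPM and that of the exosomes 317 ± 37.0 RPM (SD, n = 4). Within cows the level was 1.28 to 2.62 times higher in serum, with an interval above 1 in cows 2 and 3 and an interval that held 1 in cows 1 and 4. In exosomes the CV between cows, 11.7%, was below the 18.3% that counting alone would give, so that no difference between cows was detectable there at this depth.

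In sera bta-miR-152 had 588, 740.5, 721 and 628 RPM in cows 1 to 4, from 157 to 437 reads. In exosomes it had 478, 351, 420 and 456.5 RPM, from 29 to 72 reads. Every serum was again above every exosome library. The mean of the sera was 669 ± 73.4 RPM and that of the exosomes 426 ± 55.7 RPM (SD, n = 4). The largest difference was in cow 2, which had the highest serum and the lowest exosome level, with 2.11 times more in serum (95% exact interval 1.55 to 2.94), and the smallest was in cow 1, with 1.23 times (0.823 to 1.90). The CV between the sera was 10.97%, where counting would give 6.61%, and between the exosome libraries it was 13.1%, where counting would give 15.3%. Whether the spread of miR-152 between sera differs from that of the other members was not tested.

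**Figure D1:**
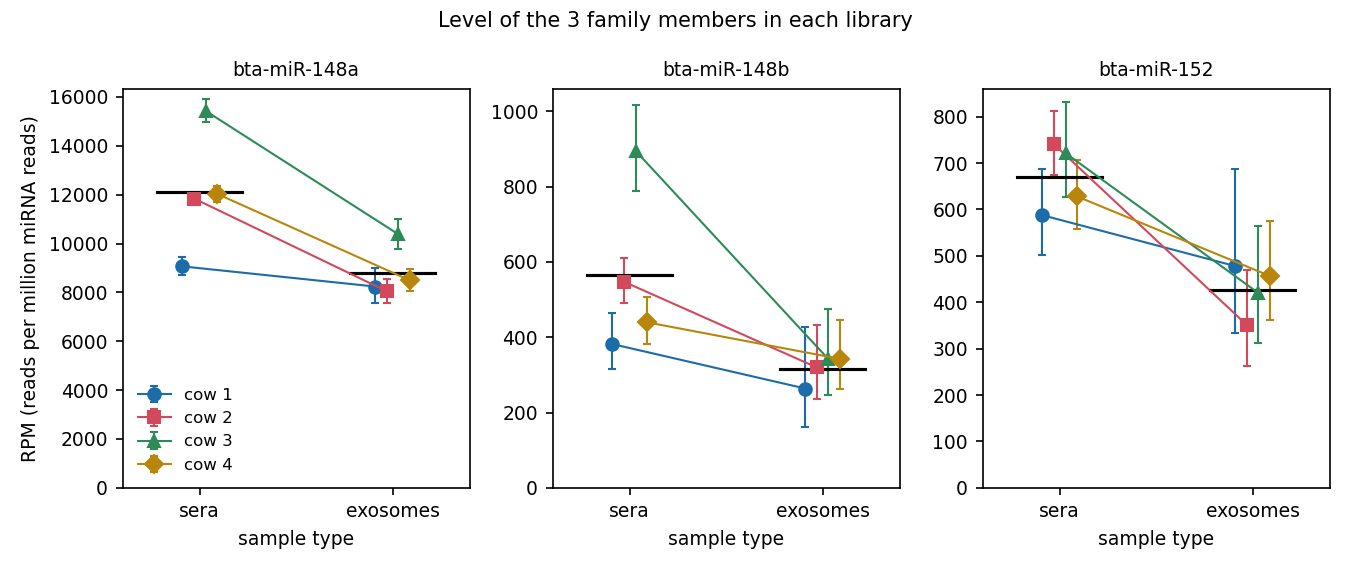
RPM of bta-miR-148a, bta-miR-148b and bta-miR-152 (vertical axes, each from 0) in the serum and the exosomes of each cow, with 95% Wilson intervals for counting error, lines that join the libraries of a cow and black bars at the group means. In all 4 cows each member was lower in exosomes, and the sera and exosomes overlapped for miR-148a alone.

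Nearly the same reads as those of miR-152 were listed under another name. In the tables bta-miR-2957, whose gene overlaps MIR152, had 154, 430, 189 and 274 reads in the sera, where miR-152 had 157, 437, 191 and 280. In exosomes it had 26, 44, 43 and 72 reads, where miR-152 had 29, 45, 43 and 72. The 2 rows thus differed by at most 7 reads in any library and were equal in the exosomes of cows 3 and 4, and miR-2957 was never above miR-152. In sera miR-2957 had 97.9% to 99.0% of the miR-152 reads, where counting alone would give miR-152 a CV of 6.61%. In exosomes it had 89.7% to 100% of them, where counting would give 15.3%. The 2 rows were thus closer than counting error. Single reads were not used here, so whether the same reads were counted under both names was not tested. The part of the miR-152 reads that comes from each gene is uncertain. Leaving miR-2957 out of the tables, with its reads out of the totals, did not move the log2 fold change of miR-152 from 0.65. As miR-2957 took at most 0.0729% of a library, this fit could hardly move it. It cannot show how shared reads bear on miR-152.

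**Figure D2:**
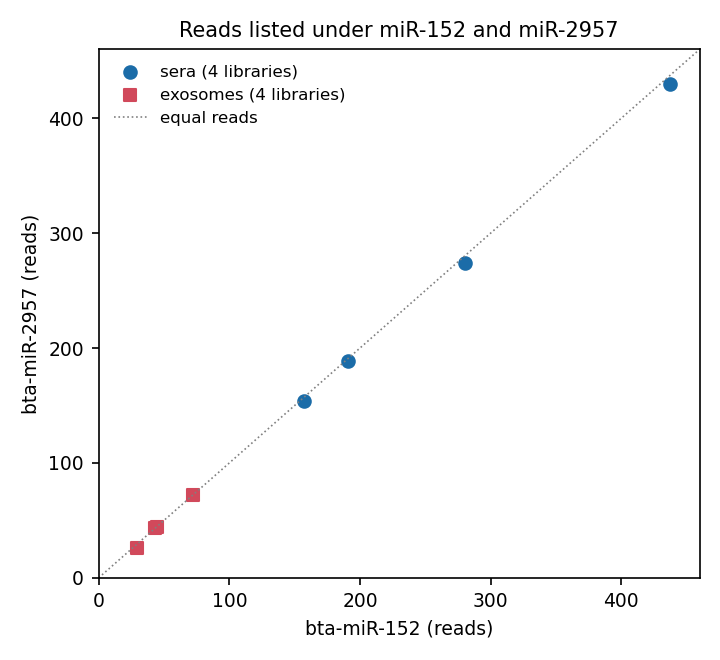
Reads of bta-miR-2957 (vertical axis) against reads of bta-miR-152 (horizontal axis) in the 8 libraries, with a dotted line where both are equal. All points lie on the line or just below it, the widest gap being 7 reads.

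Sera were then compared with exosomes over all 365 tested miRNAs with limma on log2(RPM + 1). All 3 members had a positive log2 fold change, sera over exosomes, and none passed a false discovery rate (FDR) of 0.05. The log2 fold change was 0.44 for miR-148a (standard error 0.20, FDR = 0.179), 0.76 for miR-148b (standard error 0.29, FDR = 0.130) and 0.65 for miR-152 (standard error 0.22, FDR = 0.0960). These are folds of 1.36, 1.70 and 1.57, with 95% limma intervals of 1.01 to 1.84, 1.10 to 2.61 and 1.13 to 2.18. Over all tested miRNAs 6.85% passed the FDR in either direction and 5.21% as higher in sera, and 4.38% also had a log2 fold change over 1 or under -1. The median log2 fold change was 0.57 over all tested miRNAs and 0.31 over the 128 deeper ones, and 74.8% of all tested miRNAs were on the same side as the family.

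By exact permutation tests of each member's log2 RPM over 70 assignments of the libraries, the two-sided p was 0.0571 for miR-148a and 0.0286, the smallest that 4 against 4 allow, for miR-148b and for miR-152. These p-values are not adjusted for the choice of the members. All 4 sera lay above all 4 exosome libraries for 2 of the 3 members, for 11.8% of all tested miRNAs and for 28 of the 128 deeper ones. All 3 members were higher in serum in 4 of 4 cows, as were 30.7% of all tested miRNAs. Within cows the exact sign-flip test cannot go below 0.125 with 4 pairs, and it gave that value for each member.

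The libraries are paired by cow, and the FDR changed with the pairing. With the cow as a replicate block in limma, the same log2 fold changes of 0.44, 0.76 and 0.65 had an FDR of 0.000735, 0.000557 and 0.00132. In this fit 23.0% of all tested miRNAs passed as higher in sera, and so did 63 of the 128 deeper ones. The same block was then used in a quasi-likelihood fit of the recovered reads in edgeR, with libraries scaled by a trimmed mean (TMM). There the FDR was 0.168 for miR-148a, 0.0291 for miR-148b and 0.0545 for miR-152, with 15.1% of all tested miRNAs higher in sera. In limma with the block and without both libraries of cow 3, which was chosen once the values were known, the FDR of miR-148b was 0.0617, and miR-148a and miR-152 still passed at 0.0134 and 0.0107, with 16.7% of all tested miRNAs higher in sera. In both limma fits with the block the variance of a miRNA came almost wholly from the trend over all tested miRNAs. The FDR of these fits thus hardly reflects a member's own spread between cows. Without a block, and with only the 128 deeper miRNAs tested, miR-152 had a limma FDR of 0.0374, and 23.4% of those 128 passed as higher in sera. Without the block, edgeR with TMM gave log2 fold changes of 0.23 for miR-148a, 0.56 for miR-148b and 0.46 for miR-152. With library totals in place of TMM, edgeR gave 0.46, 0.83 and 0.66. In DESeq2 they were 0.12, 0.45 and 0.34. None of these values passed the FDR. In no fit did a member reach a log2 fold change of 1.

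**Figure D3:**
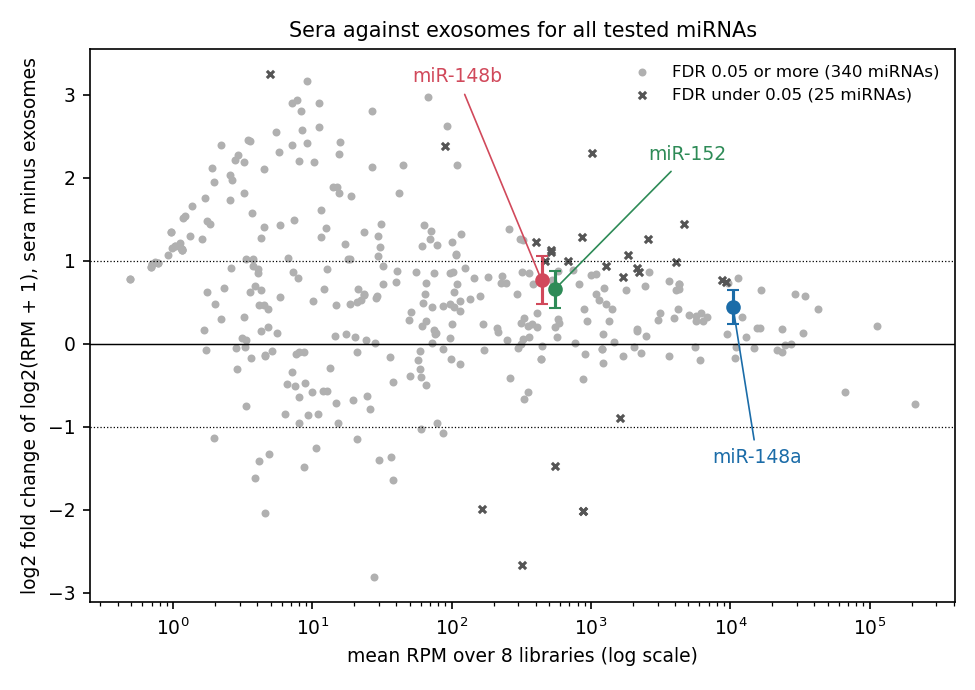
Log2 fold change of sera over exosomes (vertical axis) against mean RPM over the 8 libraries (horizontal axis, log scale) for the 365 tested miRNAs, with the 3 members in colour and their standard errors as bars. The members sit at 0.44, 0.76 and 0.65, between 0 and the dotted line at 1, and crosses mark the 25 miRNAs under an FDR of 0.05, none of which is a member.

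RPM is a share, so a member's value also moves with the other miRNAs, and the direction depended on what it was a share of. MiR-486, a miRNA of red blood cells, took 13.0% to 20.0% of the reads of a serum library and 17.4% to 34.9% of those of an exosome library. With miR-486 left out of the total, the log2 fold changes were 0.24 for miR-148a, 0.56 for miR-148b and 0.45 for miR-152 (limma FDR = 0.492, 0.292 and 0.232). The median of the 128 deeper miRNAs of each library was itself 0.19 higher in sera on the log2 scale. Against this library median, the log2 fold changes of the members were 0.25, 0.57 and 0.46 (limma FDR = 0.534, 0.272 and 0.272). On this scale miR-152 was still higher in every serum than in every exosome library (exact permutation test, two-sided p = 0.0286), while miR-148a (p = 0.229 by the same exact test) and miR-148b (p = 0.114 by it) overlapped.

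Over all sequences that entered the alignment, whether or not they were miRNAs, the difference was lost. Using the library totals of the study, miRNA reads were 5.31% to 10.3% of these sequences in sera and 8.04% to 16.9% in exosomes. For every 1000000 sequences miR-148a then had 822 ± 286 reads in sera and 986 ± 326 in exosomes (SD, n = 4), miR-148b had 38.1 ± 16.3 and 36.5 ± 15.6, and miR-152 had 46.6 ± 19.6 and 48.3 ± 19.4. The log2 fold change turned to -0.27 for miR-148a and to -0.06 for miR-152 and shrank to 0.05 for miR-148b, none of them past the FDR (limma FDR = 0.726, 0.976 and 0.976). The intervals on this scale were wide, with a fold of sera over exosomes from 0.501 to 1.38 for miR-148a. By cow the serum level of miR-148a was 0.818, 1.34, 0.878 and 0.494 times its exosome level, above 1 in cow 2 alone. In all 4 cows the family was a higher share of the miRNA reads in serum, and in 1 of 4 cows a higher share of all sequences.

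**Figure D4:**
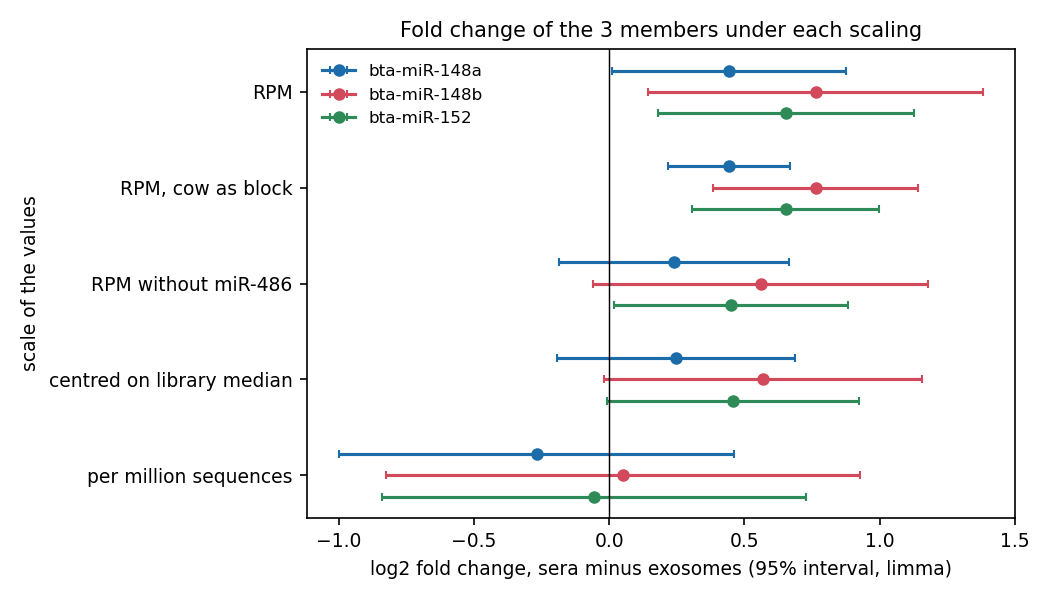
Log2 fold change of sera over exosomes (horizontal axis, with 95% limma intervals) for the 3 members when the values are RPM, RPM with the cow as a block, RPM without miR-486, values centred on the library median, and reads over all sequences. The library median is that of the 128 deeper miRNAs. The points stand at 0.44, 0.76 and 0.65 at the top and at -0.27, 0.05 and -0.06 at the bottom. All 3 intervals hold 0 at the bottom and when centred on the library median, and those of miR-148a and miR-148b do so without miR-486.

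Ratios between members within a library do not depend on the total, and they were compared to see whether the 3 divided differently between sera and exosomes. In serum miR-148a had 23.7 times the reads of miR-148b in cow 1, 21.6 times in cow 2, 17.2 times in cow 3 and 27.4 times in cow 4, and in exosomes it had 31.2, 25.2, 30.4 and 24.8 times. MiR-148a had 15.4 to 21.4 times the reads of miR-152 in serum and 17.2 to 24.7 times in exosomes, with cow 1 lowest and cow 3 highest in both. Both ratios were higher in exosomes in 3 of 4 cows, with overlapping groups and counting intervals as wide as 19.1 to 55.1 where miR-148b had 16 reads. The difference in the log2 ratio, sera minus exosomes, was -0.32 for miR-148a to miR-148b (exact permutation test, two-sided p = 0.114, adjusted p = 0.343 over 3 ratios) and -0.21 for miR-148a to miR-152 (exact permutation test, p = 0.257, adjusted p = 0.386). By cow, log2 ratios moved by an SD of 0.40 and 0.23, about as far as these differences, so that none was shown at this depth.

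MiR-152 and miR-148b were next to each other in level, and miR-152 stood above miR-148b in 7 of 8 libraries. MiR-152 had 1.54 times the reads of miR-148b in the serum of cow 1, 1.35 times in cow 2, 0.806 times in cow 3 and 1.43 times in cow 4, and 1.81, 1.10, 1.23 and 1.33 times in exosomes. Counting intervals excluded a ratio of 1 in all 4 sera, above it in cows 1, 2 and 4 and below it in cow 3 (0.663 to 0.979), and in none of the exosome libraries. The log2 ratio differed between sample types by -0.11 (exact permutation test, two-sided p = 0.714, adjusted p = 0.714), and this sign turned when the serum of cow 3 was left out, to 0.10, or the exosomes of cow 1, to 0.03.

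**Figure D5:**
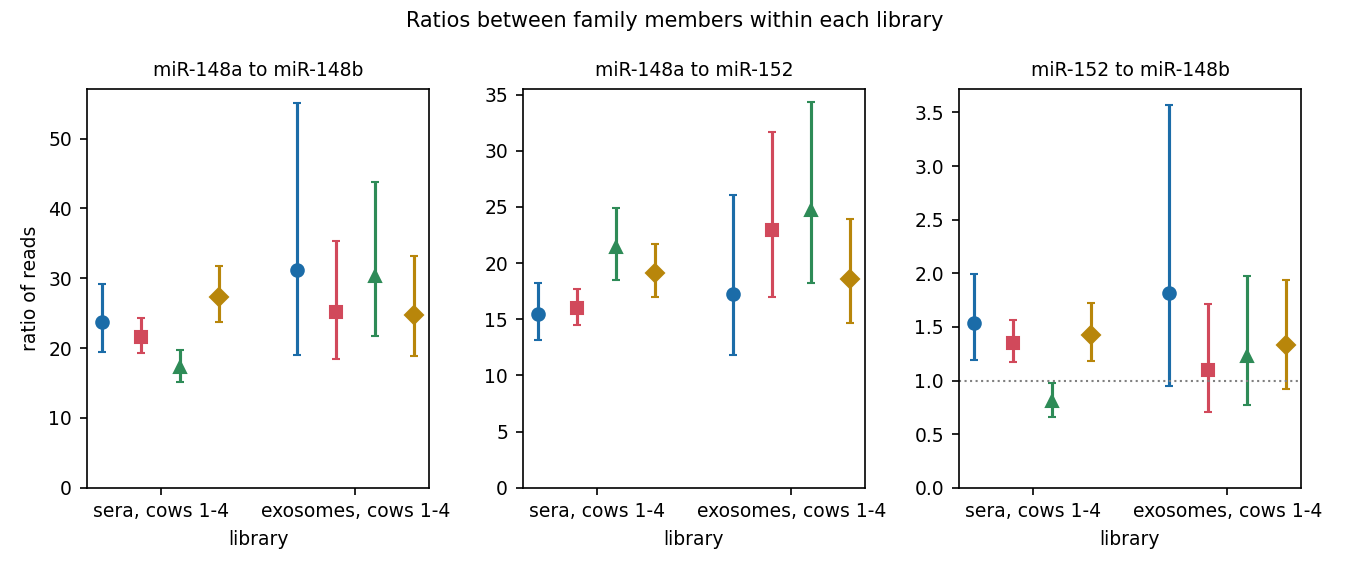
Ratio of reads between members within each library (vertical axes, from 0), with 95% exact intervals for counting error, for the sera and the exosomes of cows 1 to 4 in order (circle, square, triangle and diamond). The serum of cow 3 has the lowest ratio of miR-148a to miR-148b, 17.2, and the lowest of miR-152 to miR-148b, 0.806.

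The miRNAs most like each member were those whose log2 ratio to it varied least, as the SD over the 8 libraries, among the other 127 of the deeper miRNAs. This is a description, because the libraries come from 4 cows and share their totals. Closest to miR-148a were let-7i (SD 0.225), miR-151-3p (SD 0.230) and miR-181a (SD 0.232), where the median miRNA had 0.449. Closest to miR-148b were miR-16b (SD 0.266), miR-148a itself (SD 0.276) and miR-17-5p (SD 0.303), with a median of 0.555. Closest to miR-152 were miR-2957 (SD 0.0507), then miR-27b (SD 0.199) and miR-126-3p (SD 0.207), with a median of 0.440. From miR-148a, miR-152 was at place 7 and miR-148b at place 12, from miR-148b, miR-152 was at place 6, and from miR-152, miR-148a was at place 10 and miR-148b at place 33.

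The family was set beside 22 miRNAs abundant in cow milk, miR-148a among them. All 22 were listed and tested. Summed, they took 22.1% to 29.8% of a serum library and 17.5% to 26.8% of an exosome library, ranges that overlapped. Of the 22, 3 passed the limma FDR as higher in sera and none as higher in exosomes, with a median log2 fold change of 0.35, beside 5.21% as higher in sera and a median of 0.57 over all tested miRNAs. Of the 22, 18 were among the 128 deeper miRNAs, of which 17 passed as higher in sera, with a median of 0.31. The most abundant were miR-22-3p, miR-191 and miR-21-5p, with log2 fold changes of 0.22, 0.18 and -0.01 (limma FDR = 0.661, 0.709 and 0.984), and miR-148a was in place 5. MiR-26b and miR-200a were higher in sera by log2 fold changes of 1.07 and 1.22 (limma FDR = 0.0111 and 0.0337), and the third that passed was miR-103 with 0.75 (limma FDR = 0.0337).

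MiRNAs of epithelial cells, the cells that make milk in the mammary gland, were much lower than miR-148a. Of 11 names on the list 10 were listed in the tables and 9 tested, and miR-96 had no reads. Together they made 0.576% ± 0.0838 of a serum library and 0.470% ± 0.0802 of an exosome library (SD, n = 4), and in every library less than the family. The most abundant were miR-375 with 2551 ± 270.4 RPM in sera and 2408 ± 352 RPM in the vesicles, miR-141 with 1452 ± 555 and 1252 ± 610 RPM, and miR-205 with 979 ± 352 and 652 ± 383 RPM (SD, n = 4). MiR-200c and miR-182, of the same list, were at 21.6 and 29.6 RPM in sera. Of the 9 tested, miR-200a alone passed the limma FDR, beside 5.21% of all tested miRNAs as higher in sera, and the median log2 fold change of the list was 0.55, close to the 0.57 over all.

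Of 12 miRNAs that act on genes of cholesterol handling, miR-148a among them, all were tested and all had a positive log2 fold change. Their median was 0.83, where 74.8% of all tested miRNAs had a positive one and their median was 0.57. Of the 12, only 7 were among the 128 deeper miRNAs, whose median was 0.31. The lowest of the 12, 0.14, went with means of 214.9 RPM in sera and 215.75 RPM in exosomes, so its mean RPM was not higher in sera. They made 6.66% to 8.23% of a serum library and 3.79% to 5.45% of an exosome library, ranges that do not overlap. Most of this was miR-27b, with 41171 ± 4201 RPM in sera against 27879 ± 4932 RPM in exosomes, and miR-27a-3p, with 14143 ± 2270.5 against 8391 ± 2562 RPM (SD, n = 4). MiR-148a was the third in level. Neither miR-27b nor miR-27a-3p passed the limma FDR (0.121 and 0.0752). Past the limma FDR as higher in sera, as 5.21% of all tested miRNAs and 17 of the 128 deeper ones were, came miR-128 (log2 fold change 0.87, FDR = 0.0115) and miR-144 (1.10, FDR = 0.0149). Of these miR-144 is also a red blood cell miRNA. The lists for milk and for cholesterol were drawn up with earlier results of these data known.

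Markers of cells that could add miRNAs to serum were given beside the family. The 6 red blood cell miRNAs made 22.9% to 32.5% of a serum library and 26.9% to 49.1% of an exosome library. Within this list miR-486 and miR-92a were lower in serum in 4 of 4 cows, with log2 fold changes of -0.73 and -0.59 (limma FDR = 0.149 and 0.132), miR-451 had -0.003 (limma FDR = 0.997), and miR-16a was higher in sera with 1.44 (limma FDR = 0.00139). The 7 white blood cell miRNAs, led by miR-142-5p, miR-150 and miR-223, made 3.20% to 4.13% of serum and 3.28% to 4.82% of exosome libraries, and none passed the limma FDR. The 4 liver miRNAs made 3.18% to 5.78% of serum and 2.22% to 5.75% of exosome libraries, nearly all miR-192, and none passed the limma FDR. MiR-194, the next in level, had 287 ± 61.3 RPM in sera and 173 ± 76.4 RPM in the vesicles (SD, n = 4, log2 fold change 0.82, limma FDR = 0.175), while miR-122, the main miRNA of liver cells, had 100 reads in all sera and 12 in all exosomes. Cow 3, highest in miR-148a in both sample types, had the lowest share of the 4 in both for the liver list. That list was nearly all miR-192. In serum cow 3 also had the lowest share of the 4 for the epithelial list. It had the highest serum share for the milk list, which holds miR-148a itself. In exosomes cow 3 was at neither end for the epithelial and milk lists. The share of cow 3 for the red blood cell list was 24.3% in serum and 40.6% in exosomes. Cow 3 was singled out once its values were known, and whether these places relate to its miR-148a level was not tested. The part of these cells in the levels of the family was not tested.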

How the data were processed

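Small RNA of 4 sera and 4 exosome preparations was sequenced, each cow giving a library of both kinds. Per the labels and the methods of the study, the authors filtered reads with CASAVA 1.8, trimmed adaptors and aligned reads of at least 16 nt to the bovine miRNAs of miRBase release 21 with sRNAbench (version not given in the sources used here), each library separately. The authors deposited 1 table of RPM values per library, which add up to 1000000 over the miRNAs listed. Reads were recovered as the whole numbers that give these values, and 100% of the values came out whole within 0.051 RPM. RefSeq gave names and neighbours only, because its assembly is not the one that the study names, and the planned search for other miRNAs with the same seed was not run, as no sequences were used here.

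A miRNA was tested if it had over 1 RPM in at least 2 libraries of either sample type. The main test was limma (trend) on log2(RPM + 1) without a block, as the methods of the study name none, with Benjamini-Hochberg adjustment over all 365. Library totals of the study, for values over all sequences, were joined by animal number. The methods of the study name edgeR, which was run on recovered reads as an alternative, as was DESeq2. On simulated data with known changes limma found fewer of them than edgeR did, and a larger share of its calls was false than the FDR names. Single values were compared with exact permutation tests. The pairing by cow comes from the labels and the methods. Over 128 miRNAs, deviations from the group means had r of 0.740 to 0.860 between serum and exosomes of the same cow and -0.501 to 0.195 between different cows. Intervals cover counting error only. No 2 libraries of a sample type agreed within counting noise (chi-square per degree of freedom 29.1 or more). Ligation bias between miRNAs was not corrected. The named miRNAs were the members, from each list the 3 with the highest mean and those past FDR 0.05 and the fold limit of 1 on the log2 scale, and the 3 most like each member, while miR-2957, miR-103, miR-128, miR-96, miR-200c and miR-182 were named after their values were seen. The members and lists were chosen with earlier results of these data known. The tests were run in R 4.3.3 with limma 3.58.1, DESeq2 1.42.0 and edgeR 4.0.16, and tables and plots were made in Python 3.11.15 with pandas 2.3.3, SciPy 1.17.1, NumPy 2.4.6 and matplotlib 3.10.9.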

Additional observations from a re-analysis of the deposited data

Results flagged for a closer look

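The exosomes of cow 2 stood apart from the other 3 exosome libraries in the summed level of the 12 cholesterol miRNAs, miR-148a among them, with 37941 RPM against 53393 to 54491 RPM. In the same library miR-486 took 34.9% of the miRNA reads, the most of any library. The levels of the members, the summed levels and the ratios were checked in 26 groups of 4 libraries, and this was the 1 that stood apart, where chance alone gives about 1 in 20.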

How the results depend on the processing

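The log2 fold change of miR-148a was positive in 21 of 22 alternatives, that of miR-148b in 22 of 22 and that of miR-152 in 21 of 22. Some alternatives, such as the block in limma and the limits on reads, cannot move these values, and 8 leave out 1 library each. The counts are thus no measure of support. The lowest positive values were those of DESeq2, 0.12 for miR-148a and 0.34 for miR-152. In reads over all sequences it turned to -0.27 for miR-148a, -0.055 for miR-152 and -0.25 for the family sum, from 0.44, 0.65 and 0.47. With the replicate block in limma the values of 0.44, 0.76 and 0.65 passed the FDR, as did miR-148b with edgeR and the block (0.54), miR-152 when only the 128 deeper miRNAs were tested (0.65, FDR = 0.0374, where 37 of 128 passed in either direction), and miR-148a (0.40) and miR-152 (0.61) with the block and without cow 3 (73 of 365 passed). Without 1 library the log2 fold change of the family sum was 0.34 to 0.59 and passed an exact permutation test without the serum of cow 1 (p = 0.0286). The difference in the log2 ratio was -0.42 to -0.20 for miR-148a to miR-148b, past the exact test without the serum of cow 4 (p = 0.0286), -0.30 to -0.12 for miR-148a to miR-152 and -0.21 to 0.10 for miR-152 to miR-148b. The members' own log2 fold changes without 1 library stayed positive, with the lowest limma FDR of 0.0918 for miR-152. Of all tested miRNAs 25 passed the FDR, 15 without the serum of cow 2 and up to 31 without another library, 96 with the block in limma, 79 with the block in edgeR and 6 in reads over all sequences. Of these calls 76.0% were higher in sera, and none in reads over all sequences. The share was 55.6% in edgeR with TMM and 73.9% in edgeR with library totals, both without the block, and 42.9% in DESeq2. Depth limits miR-148b, with 16 to 54 reads in an exosome library, and miRNAs with fewer reads.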
